A study of Homo sapiens with 12 samples.

Results

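Strongly acid medium was compared with neutral medium in MDA-MB-231 cells. This human breast cancer line is classed as lacking the hormone receptors encoded by ESR1 and PGR and has basal and mesenchymal features. The comparison took the 4 libraries whose treatment label gives pH 6.4 and the 4 whose label gives pH 7.4, 8 of the 12 libraries of the series, and it was described across the 17544 genes that were expressed highly enough to be tested. Both groups were labelled wild type, were grown to 70 to 80% confluence at pH 7.4 in glucose-rich medium with serum, and were then moved to medium of their own pH for 24 h, so the neutral group changed medium too. Poly(A) RNA was sequenced, and each library holds the summed RNA of a flask of cells. Another medium, with 4 libraries, is called pH 6.9 in the sample labels and pH 6.7 in the protocol text; it shares the model used here and is named pH 6.9. The study's title names acidity and hypoxia among the factors it relates to the spread of cancer cells; hypoxia was not analysed here. The labels number the libraries as repeats without saying that they came from separate cultures. With summed RNA, fewer cells of a kind and less RNA per cell cannot be told apart.

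Tumour tissue turns acid where cells release lactic acid and carbon dioxide faster than blood removes them. Cells keep their interior near neutral by exporting acid across the plasma membrane. Moving cells push their front forward with actin filaments that grow under the membrane and pull up their rear with myosin. Acid medium is known to change the transcription of genes for nutrient use, growth factor signalling and the cell surface.

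The 8 libraries held from 21060767 to 50643233 counts. Repeat 1 at pH 7.4 stood apart: it had counts in 17841 genes, against 23113 to 27384 in the other 7, and lay at 139.47 on the first principal component (50.9% of the variance) where the others lay between -43.01 and 5.9. On the second component (27.1%), repeat 3 at pH 6.4 lay at -10.66, between the other acid libraries (29.04 to 54.52) and 3 neutral libraries (-54.08 to -39.29). The remaining neutral library, repeat 1, lay at 28.7 there, beside the acid libraries. Repeat 1 at pH 7.4 and repeat 3 at pH 6.4 are called the 2 libraries that stood apart, and counts are given with and without them. Repeat 3 at pH 6.4 was picked for lying nearer those 3 neutral libraries, so leaving it out favours more calls. Counts without the 2 libraries are therefore descriptions and no independent check. Mitochondrial transcripts took 4.56 to 5.94% of the counts. The markers matched the line's label in part. VIM, which encodes the mesenchymal filament vimentin, had 1584, 1614, 1671 and 1664 CPM (scaled counts-per-million values, repeats 1 to 4) at pH 7.4. The estrogen receptor gene ESR1 reached at most 0.0446 CPM in any of the 8 libraries. PGR, the progesterone receptor gene, and FOXA1, a factor of luminal cells, stayed under 1 CPM as well. Only 4 of 14 luminal markers were that low in all 8 libraries, and the keratin genes KRT18 and KRT19 had means of 604 and 278 CPM at pH 7.4. SPARC, listed as a basal marker, had only 1.69 to 4.15 CPM at pH 7.4. Of 14 blood cell markers 13 were under 1 CPM in all 8 libraries, and of 8 endothelial markers 6 were.

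At pH 6.4, 2737 genes were called higher and 2584 lower than at pH 7.4, which is 15.6% and 14.7% of the 17544 tested, together 30.3% (edgeR's quasi-likelihood test, Benjamini-Hochberg adjusted p under 0.05). The libraries of the groups did not overlap for 27.9% of the tested genes. Without the 2 libraries that stood apart, 3479 genes were called higher and 3561 lower. Deviations of acid and neutral libraries from their group means correlated positively across genes within repeats 1 and 2 and within repeats 3 and 4 (0.113 to 0.262) and negatively between these pairs of repeats (-0.285 to -0.0706), a description of genes that are not independent. Within repeats 1 and 2 alone 2197 genes were called higher and 1781 lower, and within repeats 3 and 4 alone 821 and 707. Of the 123 called genes named here none changed direction within either pair of repeats, and 112 and 71 were still called. These genes were chosen for calls in the same libraries, and the abundant ones also for no overlap. Agreement in direction therefore followed in part from the choice and is no independent check. Of the calls, 51.4% were higher, and this share was 40.4% when libraries were scaled by their totals alone in place of TMM, which also moved the median change of all genes from -0.000833 to -0.08 on the log2 scale. Among genes at 100 CPM or more in the higher group, 659 were called higher and 308 lower with no overlap between the groups. These are counts and not shares of the genes at that level, and they were not repeated with library totals as the scaling. In the most abundant decile of protein-coding genes 28.2% were called higher and 11.6% lower.

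**Figure D1:**
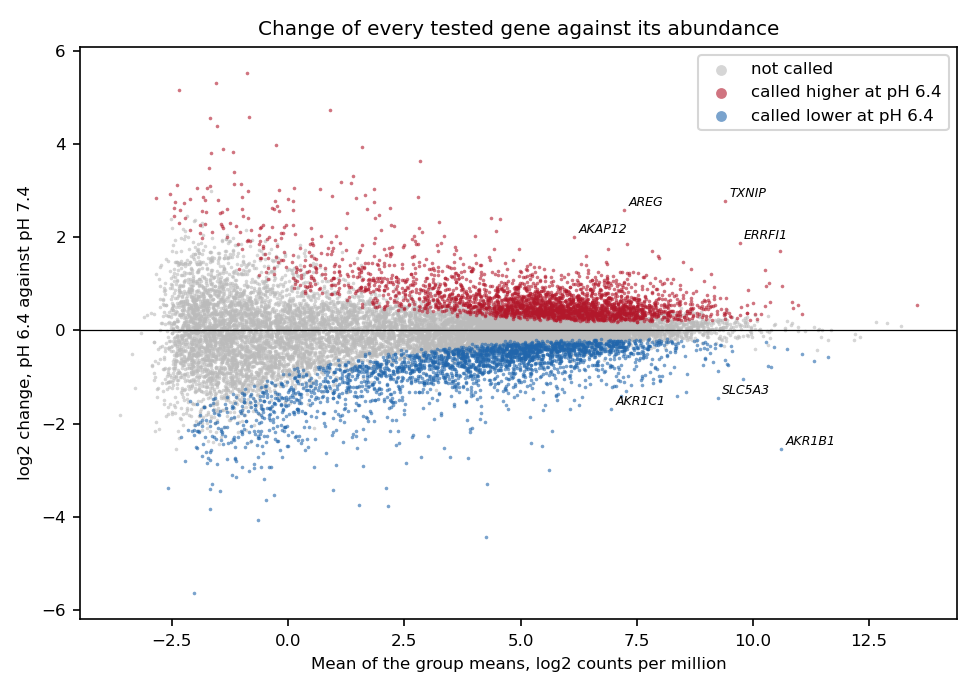
Change of every tested gene on the log2 scale (vertical axis) against the log2 of its abundance in CPM (horizontal axis); each point is a gene, red if called higher at pH 6.4, blue if called lower and grey if not called. The calls number 2737 above and 2584 below the line, and AREG, TXNIP and AKR1B1 lie far from it among the abundant genes.

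The abundant genes with the largest rises belonged to several systems: growth factor signalling (AREG, ERRFI1, RASA1), glucose and redox control (TXNIP), scaffolds and receptors (AKAP12, RGMB), surface proteolysis (ADAM19), a cytochrome (CYP1B1) and an inflammasome sensor (NLRP1). AREG encodes amphiregulin, which binds and activates the EGF receptor. It had 39.4, 44.3, 46.1 and 42.9 CPM in repeats 1 to 4 at pH 7.4 and 269.8, 339, 181 and 242 at pH 6.4. Every acid library lay above every neutral library, and the change was 2.58 on the log2 scale (SE 0.16, adjusted p = 4.32e-07). ERRFI1, which encodes an inhibitor of the same receptor, had 329, 388, 357 and 369 CPM at pH 7.4 and 1207, 1653, 859.6 and 1552 at pH 6.4 (log2 1.87, SE 0.16, adjusted p = 4.91e-06). RASA1, whose product switches RAS off, went from 131, 138, 113 and 111 to 354, 492, 251 and 396 CPM (log2 1.597, adjusted p = 3.01e-05). In each of these 3 genes repeat 3 was the lowest of the acid libraries and still lay above the neutral group.

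TXNIP, whose product restrains glucose uptake and thioredoxin, was the largest of these rises. It had 207, 231, 134 and 116 CPM at pH 7.4 and 1147, 1827, 510.3 and 1237 at pH 6.4, where repeat 2 was the highest and repeat 3 the lowest (log2 2.78, SE 0.34, adjusted p = 8.06e-05). AKAP12, a scaffold that holds protein kinase A near the membrane (chromosome 6 from 151239999 to 151358557, GENCODE 29 on GRCh38), had 21.7, 33.5, 25.7 and 32.9 CPM at pH 7.4 and 99.3, 191, 40.3 and 127 at pH 6.4. Its lowest acid library, repeat 3, lay just above the highest neutral library (log2 2.003, SE 0.35, adjusted p = 0.000795). RGMB, a co-receptor for bone morphogenetic proteins, rose from 67.6 ± 3.63 to 246 ± 113 CPM (SD, n = 4; log2 1.86, adjusted p = 0.000187 by edgeR).

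ADAM19, a membrane metalloprotease that cuts growth factor precursors, had 68.98, 50.03, 47.2 and 49.01 CPM at pH 7.4 and 180.1, 249.8, 73.4 and 219 at pH 6.4. Repeat 3 at pH 6.4 was barely above repeat 1 at pH 7.4, and the change was 1.75 on the log2 scale (SE 0.27, adjusted p = 0.000382). CYP1B1, which oxidises steroids and aromatic compounds, rose by 1.71, from 122, 141, 87.2 and 73.7 to 457, 407, 232 and 293 CPM, and NLRP1, a sensor that starts inflammasomes, rose by 1.595, from 44.7, 47.97, 38.4 and 38.6 to 129, 168, 82.1 and 134 CPM.

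The abundant falls held enzymes that reduce aldehydes and steroids (AKR1B1, AKR1C1), an osmolyte transporter (SLC5A3), a chaperone (HSPH1), a mitochondrial carrier (UCP2), a secreted ligand (BMP4) and a long non-coding RNA (UCA1). AKR1B1, the aldose reductase that makes sorbitol, had 2879.8, 2150.1, 3063 and 2554 CPM at pH 7.4 and 554, 382, 532 and 349 at pH 6.4. The groups stood far apart (log2 -2.55, SE 0.17, adjusted p = 8.99e-07). AKR1C1, which inactivates progesterone, fell from 258, 149, 199 and 152 to 82.4, 52.9, 59.8 and 40.999 CPM (log2 -1.68, adjusted p = 0.000211). SLC5A3, the inositol transporter, had 902, 827, 952 and 878 CPM at pH 7.4 and 453, 234, 362 and 255 at pH 6.4. Its exons overlap those of MRPS6, which fell by 1.18 as well, so reads of the 2 genes cannot be fully separated.

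HSPH1, a partner of the heat shock protein 70 chaperones, was the fall with the smallest error among these, with 454, 416, 499.7 and 547 CPM at pH 7.4 and 178, 194, 170.2 and 185 at pH 6.4 (log2 -1.4003, SE 0.09, adjusted p = 8.48e-07). UCP2, a carrier in the inner mitochondrial membrane, had 189, 172, 246 and 231 CPM at pH 7.4 and 64.3, 45.5, 145 and 61.5 at pH 6.4, where repeat 3 stood far above the other 3 (log2 -1.403, SE 0.28, adjusted p = 0.00201). BMP4 fell from 539 ± 55.6 to 217 ± 48.2 CPM (SD, n = 4; log2 -1.32, adjusted p = 3.4e-05 by edgeR). UCA1 (chromosome 19 from 15828206 to 15836326), a long non-coding RNA first described in bladder cancer, had 97.5, 72.6, 123 and 118 CPM at pH 7.4 and 31.1, 16.96, 50.4 and 29.6 at pH 6.4. PEG10, an imprinted gene of retroviral origin, SAMD9L, which curbs growth and viruses, and AGFG2, which carries an ArfGAP domain, changed by -1.61, -1.49 and -1.43.

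**Figure D2:**
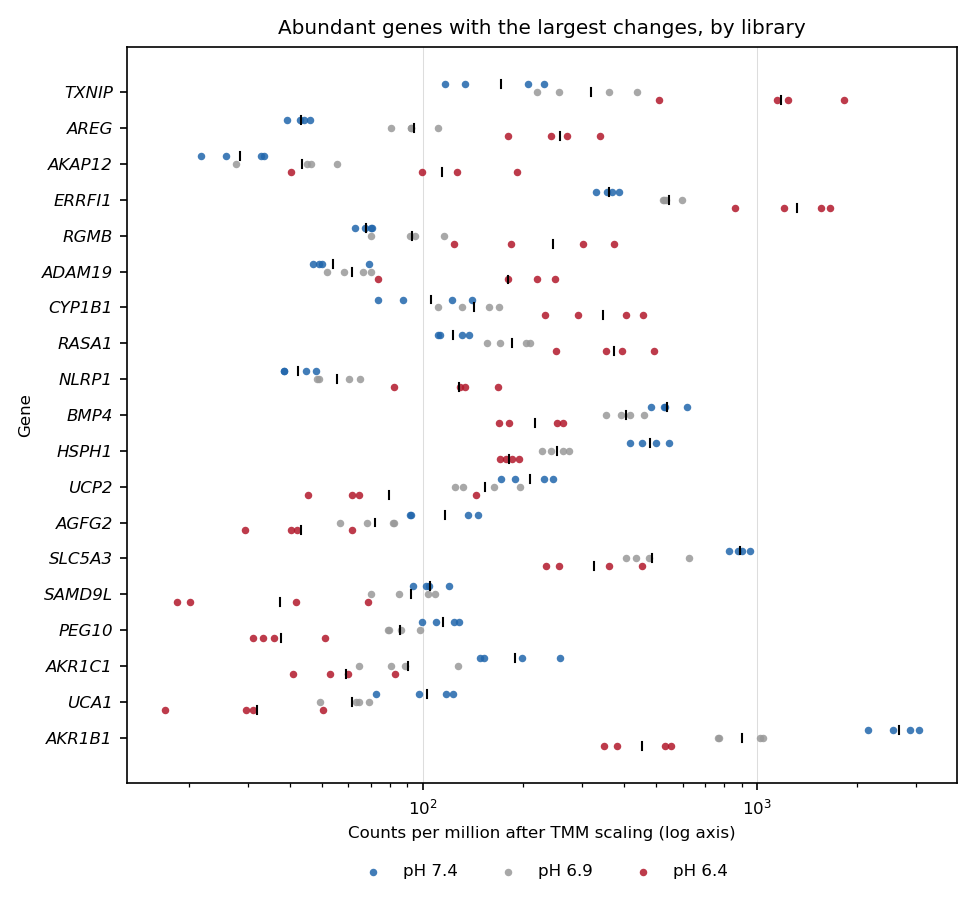
CPM on a log axis for 9 rises and 10 falls from among the largest changes of abundant genes; each dot is a library, coloured by medium (blue pH 7.4, grey pH 6.9, red pH 6.4), and the short black line is the mean of 4. Red and blue dots do not overlap for any of these genes, which the choice of genes required, and the grey means lie between them, as for AREG at 94.03.

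Chosen for the gap between the outer media, all 19 genes had a pH 6.9 mean between the other 2 means, as had 4612 of all 5321 called genes. AREG had 92.1, 111, 92.5 and 80.4 CPM at pH 6.9, AKR1B1 had 1025, 769, 1047 and 764 and HSPH1 had 263, 228, 241 and 274. Between pH 6.4 and pH 6.9, 17.0% of the tested genes were called, and 0.724% between pH 6.9 and pH 7.4; these comparisons share libraries with each other and with the one described here. AREG and AKR1B1 differed between pH 6.4 and pH 6.9 with adjusted p = 0.000535 and 0.00376, whereas AKR1C1 did not pass there (adjusted p = 0.0864).

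Among the genes with the lowest adjusted p were AREG, ADAM8, ADIRF-AS1 and ALPP. ADAM8 (chromosome 10 from 133262403 to 133276868), a sheddase of the cell surface, had little spread within either medium, with 94.9, 104, 97.8 and 96.02 CPM at pH 7.4 and 205, 192, 208 and 199 at pH 6.4 (log2 1.04, SE 0.06). For this gene repeat 3 at pH 6.4 was the highest library of its group. ALPP, the placental alkaline phosphatase, fell from 76.4, 89.5, 101 and 79.7 to 8.56, 8.09, 15.3 and 11.5 CPM (log2 -2.99).

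ADIRF-AS1 (chromosome 10 from 86965345 to 86971311) is a non-coding RNA read from the strand opposite ADIRF. It had 6.996, 7.05, 8.56 and 7.63 CPM at pH 7.4 and 42.5, 39.4, 29.6 and 46.1 at pH 6.4 (log2 2.39, SE 0.15, adjusted p = 4.32e-07). The mean of ADIRF itself was 26.3 CPM at pH 7.4 and 26.4 at pH 6.4, and that gene was not called (adjusted p = 0.998). Exons of these genes overlap on opposite strands, and no source used here gives the strand setting of the counting. Exons of ADIRF-AS1 also overlap those of MMRN2 and other annotated genes, so its reads may belong in part to those.

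Promoters, the stretches just before a gene's start, were searched for 10 short motifs on both strands. RefSeq promoter windows (GRCh38.p14), 250 bases before to 50 after the start, matched 11843 of the 17544 tested genes, of which 18.1% were called higher and 16.4% lower. The cAMP response element TGACGTCA, bound by factors of the CREB and ATF families, lay in 3.13% of these windows. Of the 371 genes with it, 23.5% were called higher and 12.9% lower. It is shown for AREG, for MAFF, a small leucine zipper factor that rose by 1.09, and for SLC31A1, the copper importer, which rose by 0.77. MAFF was chosen after its value was seen, and genes with the element that fell or were not called are not shown. Capitals mark the motif, and each line gives 60 bases of the window that hold it, 5′ to 3′ on the gene's strand.
AREG: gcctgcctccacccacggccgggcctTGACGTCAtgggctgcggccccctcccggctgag
MAFF: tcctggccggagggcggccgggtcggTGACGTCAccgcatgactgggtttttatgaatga
SLC31A1: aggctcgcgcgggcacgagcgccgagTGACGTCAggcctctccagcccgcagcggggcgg
These stretches lie at chr4:74445045-74445104 on the plus strand, chr22:38201914-38201973 on the plus strand and chr9:113221426-113221485 on the plus strand.

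The E2F letters TTTGGCGC, bound by factors that start replication genes, lay in 1.03% of the windows. Of the 122 genes with them 9.84% were called higher and 23.0% lower. They are shown, in capitals, for 4 genes called lower that act at the entry to replication. E2F2, MCM6 and CDC25A were chosen after their values were seen. Genes with these letters that rose or were not called are not shown, so the examples do not stand for all 122. RBL1 encodes a pocket protein that binds E2F factors, E2F2 such a factor, MCM6 a subunit of the replicative helicase and CDC25A a phosphatase that frees cyclin-dependent kinases.
RBL1: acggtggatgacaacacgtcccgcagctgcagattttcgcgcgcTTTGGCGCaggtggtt
E2F2: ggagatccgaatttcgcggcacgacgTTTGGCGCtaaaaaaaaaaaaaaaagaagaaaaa
MCM6: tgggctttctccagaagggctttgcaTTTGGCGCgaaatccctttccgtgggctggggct
CDC25A: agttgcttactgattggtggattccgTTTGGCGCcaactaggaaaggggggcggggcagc
The stretches lie at chr20:37095998-37096057, chr1:23531242-23531301, chr2:135876562-135876621 and chr3:48188428-48188487, each on the minus strand. RBL1 had 66.6, 67.96, 69.7 and 72.6 CPM at pH 7.4 and 43.7, 30.1, 70.5 and 38.2 at pH 6.4, where repeat 3 was within the neutral range (log2 -0.601, adjusted p = 0.023; -0.91 without the 2 libraries that stood apart). MCM6 had 132, 125, 122 and 118 and 91.5, 70.3, 118 and 75.8 CPM (log2 -0.48), again with repeat 3 of the acid group at the neutral level. E2F2 and CDC25A changed by -0.71 and -0.42 (adjusted p = 0.0272 and 0.0152). The call of RBL1 was lost without repeat 1, 2 or 4 at pH 6.4 (adjusted p = 0.0542, 0.0619 and 0.0709), that of CDC25A without repeat 4 at pH 7.4 or repeat 2 at pH 6.4 (0.0509 and 0.0541), and that of E2F2 without any of 5 libraries, repeats 1 and 3 at pH 7.4 and repeats 1, 2 and 4 at pH 6.4 (0.0531 to 0.0701).

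The E-box CACGTG, bound by MYC, MondoA, USF and clock factors among others, lay in 9.81% of the windows, and of the 1162 genes with it 14.6% were called higher and 19.6% lower. It is shown for 3 genes that rose and 1 that fell. ARRDC4, chosen after its value was seen, encodes a relative of TXNIP, and SLC26A2 a sulfate importer described below.
ADIRF-AS1: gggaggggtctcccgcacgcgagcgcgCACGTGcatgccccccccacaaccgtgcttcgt
AKAP12: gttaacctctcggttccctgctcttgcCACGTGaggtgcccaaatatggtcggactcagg
ARRDC4: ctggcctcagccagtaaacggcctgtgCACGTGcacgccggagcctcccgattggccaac
SLC26A2: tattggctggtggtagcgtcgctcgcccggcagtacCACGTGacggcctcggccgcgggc
The stretches lie at chr10:86971381-86971440 on the minus strand and at chr6:151239847-151239906, chr15:97960466-97960525 and chr5:149960698-149960757 on the plus strand. ARRDC4 went from 2.15, 3.97, 2.6996 and 2.21 to 12.6, 16.5, 6.12 and 12.8 CPM (log2 2.12, adjusted p = 0.000237). Among the other motifs the AP-1 site TGACTCA (18.2% higher, 18.2% lower of 401 genes), the cell cycle element TTTGAA (18.5% and 16.5% of 1186) and the antioxidant element TGACNNNGC (18.2% and 15.2% of 1794) were near the shares of all windows. The stress element TGATGNAAT gave 26.7% and 13.3% of 60 genes, the sterol element TCACNCCAC 24.8% and 15.0% of 133, the heat shock element 12.5% and 22.5% of 40 and the interferon-stimulated response element 14.6% and 18.7% of 342. In the order given, these 7 motifs lay in 3.39%, 10.0%, 15.1%, 0.507%, 1.12%, 0.338% and 2.89% of the windows, and motifs may overlap. The mean GC content of the windows was 64.1%, and ranged from 50.3% for the stress element to 65.9% for the E-box. A match is a description of letters, and no share was tested.

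Gene groups were then described by counts, read against the 15.6% called higher and 14.7% called lower among all tested genes. Among protein-coding genes alone these shares were 18.8% and 16.3%. They were 28.2% and 11.6% in the most abundant decile of protein-coding genes and 30.4% and 12.8% in the decile with the longest transcripts. The lists were not matched for abundance or length. The highest share of rises was among chromatin-modifying enzymes, with 28.2%, and the highest share of falls among heparan sulfate genes, with 36.1%. These shares are descriptions of lists written with earlier results in view. Of each list the 3 called members with the largest changes and at least 5 CPM are named; other members were chosen after their values were seen, and, except where a lost call is given, were called whichever of the 8 libraries was left out. With library totals as the scaling the medians of 8 lists that lie above 0 here lay below it: actin, tubulin, polyamine, iron, lipid, chromatin, splicing and long non-coding RNA genes. Under at least 1 other alternative the medians of 9 lists changed sign: guidance, tubulin, receptor, iron, zinc, lipid, long non-coding RNA, proteasome and ZNF genes.

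**Figure D3:**
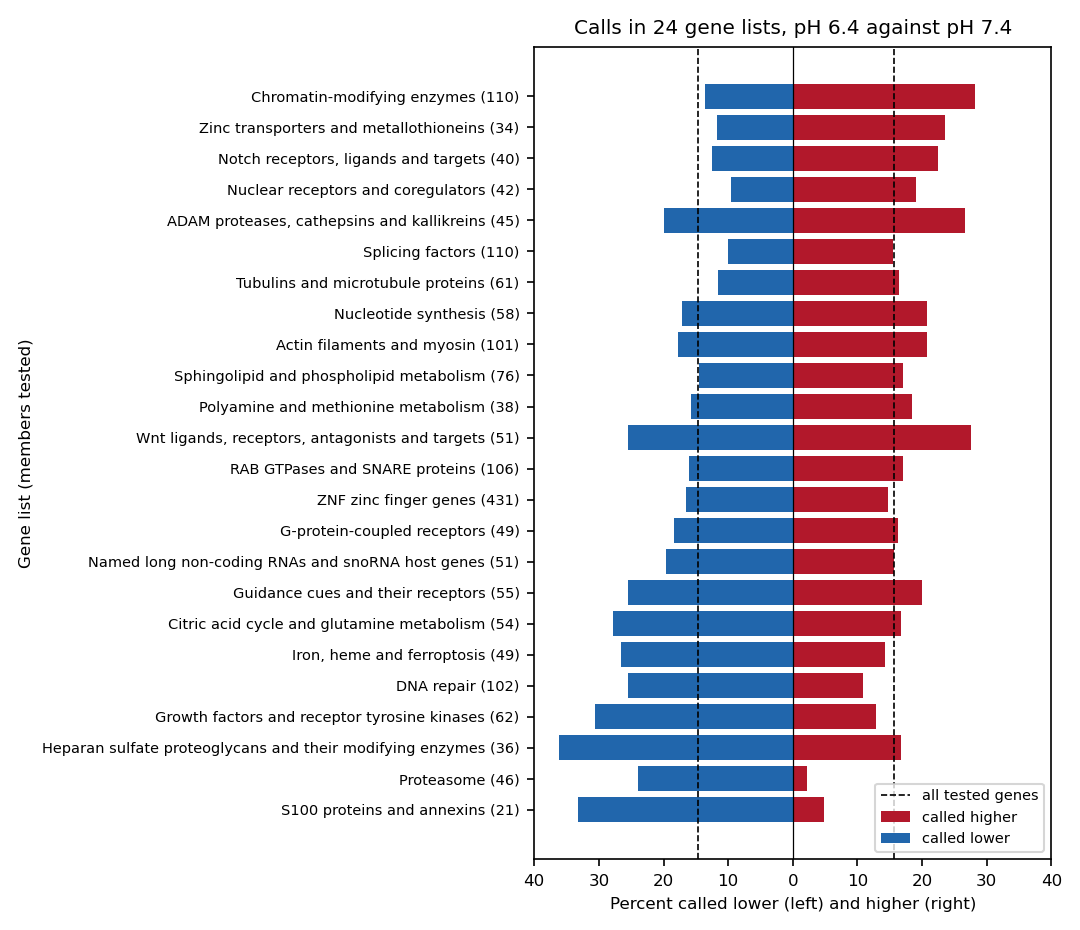
Share of the tested members of 24 gene lists called higher (red, right) and lower (blue, left) at pH 6.4, in percent, with the number tested in brackets; dashed lines mark the shares of all tested genes, 15.6% higher and 14.7% lower. Bars run from 28.2% higher for chromatin-modifying enzymes to 36.1% lower for heparan sulfate genes. Among protein-coding genes alone the shares were 18.8% higher and 16.3% lower.

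Of 101 actin and myosin genes 21 rose and 18 fell (median 0.06). SSH1, the phosphatase that activates the actin-severing protein cofilin, had 175, 199.7, 202 and 211 CPM at pH 7.4 and 427, 493, 305 and 474 at pH 6.4 (log2 1.11, adjusted p = 4.81e-05). MYO10, the motor of filopodia, rose by 0.95, and the formins FMNL1 and FMNL3, which lengthen filaments, by 0.86 and 0.75, while FMNL2 of the same family fell by 0.405. MYO18A, a myosin of the Golgi, fell from 251, 271, 260.3 and 248 to 137, 111, 169.9 and 106 CPM (log2 -0.97). The gelsolin gene GSN, which severs filaments, and MYL9, a light chain of contractile myosin, fell by 0.91 and 0.75. Rises numbered 13 without repeat 4 at pH 6.4, 13 with library totals as the scaling and 35 once libraries of the same number were paired across media by a repeat block, and 23 rose and 15 fell without the 2 libraries that stood apart.

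Of 61 tubulin and microtubule genes 10 rose and 7 fell (median 0.02). MAP2, which bundles microtubules in neurons, had 16.8, 34.5, 24.4 and 23.7 CPM at pH 7.4 and 4.63, 8.13, 4.499 and 4.49 at pH 6.4, the largest change of the called members (log2 -2.19, SE 0.25, adjusted p = 4.82e-05). MAPRE2, a protein of growing microtubule ends, fell by 0.84, and STMN3, a relative of the microtubule-destabilising stathmin, rose by 0.81. STMN3 reached 46.1 CPM at pH 6.9 and 46.6 at pH 6.4, and these media were not called apart (adjusted p = 0.949). Both with the block and without the 2 libraries that stood apart 16 rose, and 12 and 8 fell. With library totals as the scaling 8 rose and 11 fell.

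Growth factors and receptor tyrosine kinases outside the ERBB family fell more often than they rose, 19 against 8 of 62 (median -0.08; 18 and 8 without the 2 libraries that stood apart, and 13 rises with the block). FGFBP1, which frees fibroblast growth factors from the matrix, went from 6.76, 5.69, 4.75 and 4.04 CPM to 0.317, 0.388, 0.448 and 0.411 (log2 -3.75, SE 0.29, adjusted p = 2.41e-06). Receptor genes among the falls were FGFR4 (-1.15), PDGFRB (-1.02) and ROR1 (-0.95). Rises included FGF5, a fibroblast growth factor, with 5.63, 9.14, 11.1 and 13.6 CPM at pH 7.4 and 26.7, 36.4, 22.6 and 46.5 at pH 6.4 (log2 1.74), PDGFA (1.27), a ligand of platelet-derived growth factor receptors, and MUSK, the receptor for agrin signals at nerve endings (1.63). The abundant receptors MET and AXL rose by less, 0.38 and 0.37.

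Guidance cues and their receptors gave 11 rises and 14 falls of 55 (median -0.04; 10 and 16 without the 2 libraries that stood apart). Semaphorins moved in both directions. SEMA7A had 65.1, 56.9, 61.998 and 75.6 CPM at pH 7.4 and 118, 205, 66.5 and 199.9 at pH 6.4, overlapping at repeat 3 (log2 1.18, adjusted p = 0.00411), and SEMA4B rose by 0.94 with no overlap, while SEMA4F and SEMA3C fell by 0.61 and 0.73. Ephrin receptors were among the falls, with EPHB3 at -1.54 and EPHA4 at -0.74. Falls numbered from 6 to 9 without any of 6 single libraries (repeats 2, 3 and 4 at pH 7.4 and repeats 1, 2 and 4 at pH 6.4), and rises 7 without repeat 1 at pH 7.4.

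In the Wnt group 14 of 51 genes rose and 13 fell (median 0.15; 14 and 12 without the 2 libraries that stood apart). The ligand WNT2B had 3.37, 2.94, 3.86 and 2.59 CPM at pH 7.4 and 17.8, 21.3, 9.38 and 14.97 at pH 6.4 (log2 2.33, SE 0.25, adjusted p = 3.78e-05). AXIN1, the scaffold of the complex that destroys beta-catenin, rose by 0.66, and CSNK1A1, a kinase of that complex, by 0.43. In contrast APC, of the same complex, fell by 0.34. CTNNB1, the beta-catenin gene, fell by 0.41, a call kept in 5 of the 8 fits that left out a library. Falls included BAMBI, a decoy receptor of the TGF-beta family and a Wnt target, from 21.5, 16.6, 19.7 and 17.4 to 7.9001, 8.005, 8.01 and 8.91 CPM (log2 -1.197). Falls numbered 8 without repeat 2 at pH 7.4 and 7 without repeat 2 or repeat 4 at pH 6.4.

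Notch genes gave 9 rises and 5 falls of 40 (median 0.15; 11 and 5 without the 2 libraries that stood apart). The receptor NOTCH1 had 30.9, 32.1, 41.2 and 47.4 CPM at pH 7.4 and 70.1, 88.6, 56.96 and 119 at pH 6.4 (log2 1.14, adjusted p = 0.000843), and MIB1, the ubiquitin ligase that activates Notch ligands, rose by 1.02. LFNG, a glycosyltransferase that tunes which ligand a receptor answers, fell from 36.6, 22.1, 23.2 and 19.96 to 10.9, 5.52, 13.1 and 8.49 CPM (log2 -1.42). The other falls, named after their values were seen, were HES6 (-0.63), PSENEN (-0.59), POGLUT1 (-0.56) and the Notch target HES1 (-0.38). The call of HES1 was lost without repeats 1, 3 or 4 at pH 7.4 or repeats 1 or 2 at pH 6.4 (adjusted p = 0.0692 to 0.1), and that of PSENEN without repeats 1 or 2 at pH 7.4 or repeats 2 or 4 at pH 6.4 (0.1 to 0.113). Rises numbered 5 without repeat 1 or 2 at pH 6.4 and 15 with the block, and falls 3 without repeat 1 at pH 7.4 or repeat 2 at pH 6.4.

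Receptors for lipids, nucleotides and proteases that couple to G proteins gave 8 rises and 9 falls of 49, near the shares of all genes (median -0.12). GPER1, a membrane receptor for estrogen, had 25.02, 17.7, 30.3 and 25.5 CPM at pH 7.4 and 4.85, 3.56, 8.998 and 5.14 at pH 6.4 (log2 -2.12, SE 0.25, adjusted p = 6.31e-05). HCAR1, the receptor for lactate, fell from 13.9, 16.4, 12.7 and 12.1 to 7.29, 3.09, 7.94 and 2.88 CPM (log2 -1.37). P2RY11, a nucleotide receptor, had a change of 1.22, though its exons overlap those of EIF3G, PPAN and the read-through gene PPAN-P2RY11. Without the 2 libraries that stood apart 8 rose and 15 fell.

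**Figure D4:**
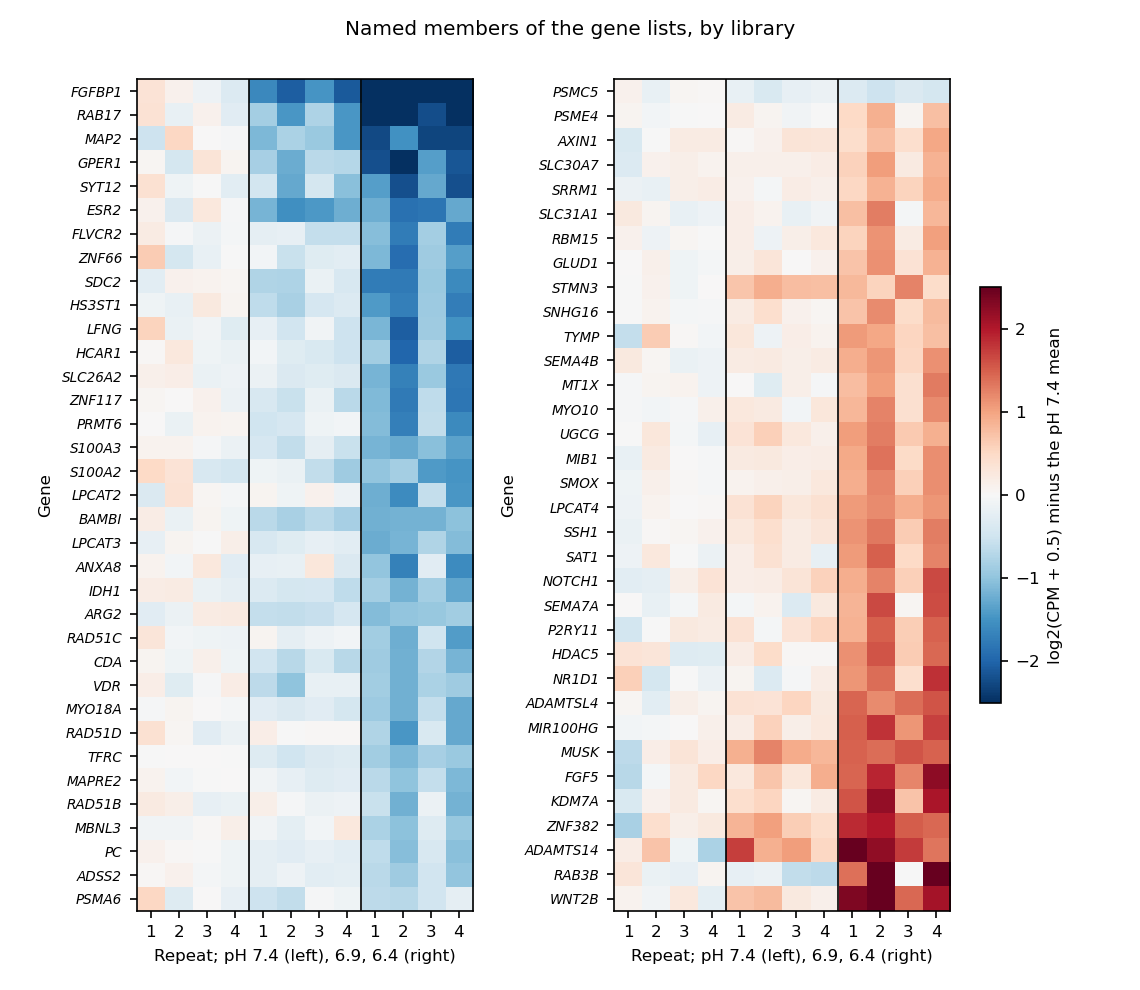
log2(CPM + 0.5) of each named list member minus its pH 7.4 mean, for 12 libraries in columns (repeats 1 to 4 of pH 7.4, pH 6.9 and pH 6.4, left to right) and genes in rows, blue lower and red higher. Within pH 6.4 the column of repeat 3 is paler than the others for many genes, as for SEMA7A, where it held 66.5 CPM against a neutral mean of 64.9.

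Proteases of the ADAM and cathepsin families and their inhibitors gave 12 rises and 9 falls of 45 (median -0.16; 13 and 10 without the 2 libraries that stood apart, and 16 falls with the block). The rises were mainly ADAM and ADAMTS genes. ADAMTS14, which trims collagen precursors, went from 1.7999, 2.85, 1.396 and 0.669 to 12.1, 8.98, 6.36 and 4.62 CPM (log2 2.24, SE 0.41), and ADAMTSL4, a protein of elastic fibres, from 20.7, 16.4, 22.1 and 20.8 to 55.6, 45.5, 52.8 and 60.5 CPM (log2 1.43, SE 0.12). Together with ADAM19 and ADAM8 above, ADAM15 and ADAM9 rose by 0.43 and 0.32, whereas ADAMTS9 fell by 0.78. Of the lysosomal cathepsins CTSD, CTSZ and CTSA fell, by 0.71, 0.43 and 0.24, and CTSK, cathepsin K, rose by 1.23. The membrane protease matriptase, ST14, fell by 0.97.

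Heparan sulfate genes fell in 13 and rose in 6 of 36 cases (median -0.13), and these counts were 14 and 6 without the 2 libraries that stood apart. Heparan sulfate is a sulfated sugar chain on core proteins that holds growth factors at the cell surface. The core protein SDC2 had 67.9, 87.8, 86.7 and 84.6 CPM at pH 7.4 and 23.99, 23.6, 42.7 and 26.7 at pH 6.4 (log2 -1.48, SE 0.19, adjusted p = 9.47e-05). HS3ST1 and HS6ST1, which add sulfate to the chain, fell by 1.44 and 1.34, with 39.2, 37.05, 50.2 and 44.3 CPM at pH 7.4 and 15.6, 12.6, 22.3 and 12.4 at pH 6.4 for the first. SLC26A2, which imports sulfate, fell from 88.1, 89.5, 71.3 and 73.2 to 35.6, 24.5, 42.1 and 22.7 CPM (log2 -1.37), and PAPSS1, which makes the activated sulfate, fell by 0.51. In contrast EXT1 and EXTL3, which build the chain, and the core protein AGRN rose, by 0.42, 0.398 and 0.41, but EXTL2 of the same enzyme family fell by 0.74.

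Of 21 genes for S100 proteins and annexins, families that bind calcium, 7 fell (median -0.17). S100A3 had 42.4, 42.7, 39.5 and 36.2 CPM at pH 7.4 and 17.7, 16.5, 19.3 and 15.5 at pH 6.4 (log2 -1.22, SE 0.11, adjusted p = 8.1e-06). S100A2 had 236, 214, 127 and 122 CPM at pH 7.4 and 84.2, 93.4, 62.8 and 60.4 at pH 6.4, so that repeats 1 and 2 were higher than repeats 3 and 4 in both media (log2 -1.22), and ANXA8 changed by -1.06 with an overlap at repeat 3. The 1 rise, S100PBP (0.36), encodes a binding partner and not an S100 protein, and was named after its value was seen. Without the 2 libraries that stood apart, or without either of them alone, 2 genes rose.

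Citric acid cycle and glutamine genes fell in 15 and rose in 9 of 54 cases (median -0.13; 16 and 9 without the 2 libraries that stood apart, and 23 falls with library totals). IDH1, the cytosolic isocitrate dehydrogenase that makes NADPH, fell from 126, 129, 99.1 and 94.9 to 61.6, 48.5, 61.3 and 44.7 CPM (log2 -1.05, adjusted p = 7.78e-05), while its mitochondrial relative IDH2 rose by 0.72. GLUD1, which turns glutamate into a cycle intermediate, had 167, 182, 154 and 161 CPM at pH 7.4 and 272, 366, 212 and 302 at pH 6.4 (log2 0.795), and SDHA, a subunit of complex II, rose by 0.62. PC, which feeds pyruvate into the cycle, and the citrate carrier SLC25A1 fell, by 0.77 and 0.52. The aspartate and glutamate carriers SLC25A12 and SLC25A13 fell as well, by 0.74 and 0.44.

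Nucleotide synthesis gave 12 rises and 10 falls of 58 (median -0.08). CDA, which salvages cytidine, fell from 124, 110.5, 130.2 and 111 to 63.9, 51.2, 70.8 and 52.5 CPM (log2 -0.99, SE 0.11), and ADSS2, of adenine synthesis, by 0.75. IMPDH1 and IMPDH2, of guanine synthesis, rose by 0.503 and 0.55. TYMP, the thymidine phosphorylase, was called at 0.87, and the call was lost without repeat 4 at pH 7.4 or repeat 1 or 2 at pH 6.4 (adjusted p = 0.0529 to 0.0596). Rises numbered 5 without repeat 2 at pH 6.4 and 6 with library totals, falls 5 without repeat 2 or 4 and 6 without repeat 1 at pH 6.4, and without the 2 libraries that stood apart they were 13 and 12.

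Polyamines are small charged molecules that dividing cells need. Of 38 genes of polyamine and methionine metabolism 7 rose and 6 fell (median 0.05; 11 and 6 without the 2 libraries that stood apart, and 11 rises without repeat 3 at pH 6.4 alone). Both enzymes that start polyamine breakdown rose. SAT1, which acetylates spermidine and spermine, had 90.2, 119, 98.4 and 89.5 CPM at pH 7.4 and 206, 278, 139.9 and 232 at pH 6.4 (log2 1.11, adjusted p = 0.000443), and SMOX, the spermine oxidase, had 10.4, 12.3, 11.5 and 11.1 and 21.5, 27.1, 17.4 and 25.7 CPM (log2 1.02). ARG2, which makes the precursor ornithine, fell from 37.04, 40.8, 52.2 and 53.1 to 20.99, 22.7, 23.3 and 24.4 CPM (log2 -1.001), and AMD1, which supplies the aminopropyl groups, fell by 0.55. SMS, the spermine synthase, rose by 0.66.

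Iron, heme and ferroptosis genes fell in 13 and rose in 7 of 49 cases (median 0.01; 15 and 9 without the 2 libraries that stood apart, and 11 rises with the block). The median lay below 0 under 7 alternatives, the lowest with library totals (-0.07). TFRC, the transferrin receptor that brings iron into cells, had 497, 509, 503 and 502 CPM at pH 7.4 and 274, 231, 284 and 265 at pH 6.4 (log2 -0.93, SE 0.08, adjusted p = 3.81e-06). LPCAT3, which puts polyunsaturated fatty acids into membrane lipids, went from 35.998, 44.2, 41.6 and 46.2 to 17.5, 18.4, 24.7 and 19.5 CPM (log2 -1.07), and FLVCR2, a transporter of the FLVCR family, fell by 1.502. The heme synthesis genes ALAD and UROD fell by 0.75 and 0.47, and the next to last enzyme, PPOX, rose by 0.48. The mitochondrial iron importers SLC25A28 and SLC25A37 rose by 0.83 and 0.68.

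Among 34 zinc and copper transporters and metallothioneins 8 rose and 4 fell (median -0.08; 12 and 5 without the 2 libraries that stood apart, 8 falls with the block and 7 with library totals). The median lay above 0 without the 2 libraries that stood apart (0.04), under both other filters and by DESeq2 (0.03). The metal-binding MT1X had 10.5, 11.2, 11.5 and 9.83 CPM at pH 7.4 and 18.6, 22.7, 14.4 and 27.1 at pH 6.4 (log2 0.94), and MT2A and MT1E rose by 0.56 and 0.48. SLC31A1 had 99.5, 88.3, 74.3 and 77.5 CPM at pH 7.4 and 142, 205, 81.4 and 151 at pH 6.4, where repeat 3 lay inside the neutral range (adjusted p = 0.00955). SLC30A7, which moves zinc into the Golgi, rose by 0.703. The falls, named after their values were seen, were SLC39A1 (-1.78), SLC30A3 (-1.14), SLC31A2 (-0.46) and SLC30A6 (-0.299). SLC39A1 had 5.11, 0.682, 1.21 and 0.937 CPM at pH 7.4 and 0.512, 0.388, 0.7302 and 0.685 at pH 6.4, groups that overlap, and without repeat 1 at pH 7.4 its change was -0.68 (adjusted p = 0.106); without repeat 1 or 2 at pH 6.4 the adjusted p was 0.059 and 0.0729. SLC30A3 was not called without repeat 4 at pH 7.4 or repeat 2 or 4 at pH 6.4 (adjusted p = 0.053 to 0.058).

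Sphingolipid and phospholipid genes gave 13 rises and 11 falls of 76 (median 0.02; 21 and 15 without the 2 libraries that stood apart, and 21 rises with the block). The enzymes that re-attach a fatty acid to lysophospholipids split: LPCAT4 rose from 40.6, 47.5, 44.9 and 45.8 to 93.8, 102, 84.5 and 95.97 CPM (log2 1.07, SE 0.09, adjusted p = 3.81e-06) and LPCAT1 by 0.47, while LPCAT2 fell from 36.99, 61.9, 49.9 and 46.3 to 20.2, 15.9, 31.7 and 17.2 CPM (log2 -1.198) beside the fall of LPCAT3. UGCG, which starts glycosphingolipids by adding glucose to ceramide, had 228, 280.0, 225 and 199 CPM at pH 7.4 and 476, 559.9, 366 and 429 at pH 6.4 (log2 0.97). Of the sphingosine kinases SPHK2 fell by 0.68 and SPHK1 rose by 0.64, a call kept in 3 of the 8 fits that left out a library.

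DNA repair genes fell in 26 and rose in 11 of 102 cases (median -0.10). Genes of recombination repair had the 3 largest changes among members with at least 5 CPM. RAD51C had 24.04, 18.4, 18.1 and 17.7 CPM at pH 7.4 and 10.4, 8.005, 13.7 and 7.06 at pH 6.4 (log2 -0.997, adjusted p = 0.00111), and RAD51D had 20.96, 16.5, 13.03 and 14.4 and 9.31, 5.55, 12.2 and 6.302 (log2 -0.96), both highest at repeat 3 among the acid libraries. RAD51B changed by -0.79 with overlapping groups, and its call was lost without repeat 1 or 2 at pH 7.4 or repeat 2 or 4 at pH 6.4 (adjusted p = 0.0502 to 0.0752). OGG1 of base excision repair (-0.73) and FANCF of the Fanconi pathway (-0.66) were also among the falls. WRN, a helicase, and ATM, the kinase that answers double-strand breaks, rose by 0.75 and 0.41. Falls numbered 41 and rises 18 without the 2 libraries that stood apart, falls 14 without repeat 2 and 16 without repeat 4 at pH 6.4, and rises 7 without repeat 2 at pH 6.4 and 18 with the block.

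Chromatin-modifying enzymes rose in 31 and fell in 15 of 110 cases (median 0.05; 32 and 20 without the 2 libraries that stood apart). Histone demethylases were among the rises, led by KDM7A with 10.7, 15.4, 16.7 and 14.8 CPM at pH 7.4 and 43.2, 67.3, 23.8 and 59.97 at pH 6.4 (log2 1.75, SE 0.25, adjusted p = 0.000237), and including KDM6B (1.02), KDM1A (0.42) and KDM5C (0.49). The deacetylases HDAC4, HDAC5 and HDAC9 rose, by 0.64, 1.22 and 0.77, and HDAC1 fell by 0.42, a call kept in 6 of the 8 fits that left out a library. PRMT6, which methylates arginine on histone tails, fell from 21.6, 18.98, 22.9 and 22.5 to 9.83, 6.21, 13.9 and 6.78 CPM (log2 -1.22), and UHRF1, which keeps DNA methylation through replication, fell by 0.82. The DNA methyltransferase DNMT3B rose by 0.81.

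Splicing factors gave 17 rises and 11 falls of 110 (median 0.03), 15.5% and 10.0%. RBM15, an RNA-binding partner of the methylation machinery, SRRM1, a scaffold of the spliceosome, and SRPK1, the kinase of SR proteins, rose by 0.78, 0.72 and 0.5999. MBNL3 fell by 0.78, and SRSF2 and HNRNPM fell by 0.51 and 0.48. Falls numbered 7 without repeat 2 at pH 7.4 or repeat 1 at pH 6.4 and 21 with library totals, the block gave 31 rises and 21 falls, and without the 2 libraries that stood apart there were 18 and 15.

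Nuclear receptors and their partners gave 8 rises and 4 falls of 42 (median 0.15). ESR2, the second estrogen receptor, fell from 9.17, 6.49, 10.2 and 8.25 to 3.32, 1.96, 2.002 and 3.19 CPM (log2 -1.71, SE 0.22), and was already at 3.48, 2.58, 2.81 and 3.34 CPM at pH 6.9. VDR, the vitamin D receptor, fell from 16.03, 11.5, 13.9 and 16.2 to 7.61, 5.93, 7.99 and 7.501 CPM (log2 -0.99), while CYP24A1, the enzyme that breaks vitamin D down, rose by 1.22. NR1D1, a repressor of the circadian clock, was called at 1.26, with 15.5, 7.26, 9.91 and 9.098 CPM at pH 7.4 and 22.1, 27.3, 13.6 and 36.9 at pH 6.4, groups that overlap. The other falls, named after their values were seen, were NR1H3 (-0.57) and CYP26B1 (-0.402). NR1H3 was not called without repeat 2 at pH 7.4 or repeat 4 at pH 6.4 (adjusted p = 0.0591 and 0.0528), nor CYP26B1 without repeat 1 at pH 7.4 or repeat 1 or 4 at pH 6.4 (0.0678 to 0.0872). Rises numbered 4 or 5 without repeats 1 or 3 at pH 7.4 or repeats 1, 2 or 4 at pH 6.4, falls 2 without repeat 4 at pH 6.4, and without the 2 libraries that stood apart they were 9 and 3. With library totals as the scaling 4 rose and 5 fell.

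Among 51 named long non-coding RNAs and host genes of small nucleolar RNAs 8 rose and 10 fell (median 0.05). MIR100HG, the host of microRNAs of the miR-100 cluster, had 122, 122, 128 and 138 CPM at pH 7.4 and 359.7, 445, 274 and 418 at pH 6.4 (log2 1.55, SE 0.14, adjusted p = 5.93e-06). SNHG16 and GAS5, host genes, rose by 0.82 and 0.67, beside the fall of UCA1 above. Rises numbered 16 with the block, falls 6 without repeat 1 at pH 7.4 or repeat 2 or 4 at pH 6.4, and 12 rose and 8 fell without the 2 libraries that stood apart. The 431 ZNF genes, mostly zinc finger transcription factors, gave 64 rises and 71 falls, 14.8% and 16.5%, close to all tested genes; ZNF382 changed by 1.83, ZNF66 by -1.49 and ZNF117 by -1.29, and 76 rose and 81 fell without the 2 libraries that stood apart.

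Proteasome genes fell in 11 of 46 cases (median -0.09), each by less than 1 on the log2 scale. Without the 2 libraries that stood apart the median was 0.01. PSMC5, a subunit of the regulatory cap, went from 187, 151, 179.8 and 177 to 137, 121, 135 and 127 CPM (log2 -0.41, SE 0.08). The 1 rise was PSME4, an activator that replaces the usual cap in the nucleus (0.58, groups overlapping). PSMA6, of the core ring, was called at -0.57 with adjusted p = 0.0493, and the call was lost without repeat 1 or 3 at pH 7.4 or repeat 1, 2 or 3 at pH 6.4 (0.0654 to 0.161). Rises numbered 6 without repeat 3 at pH 6.4 and with the block, falls 7 without repeat 3 at pH 7.4 or repeat 1 at pH 6.4 and 17 with the block or library totals, and without the 2 libraries that stood apart there were 6 rises and 7 falls.

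RAB GTPases and SNARE proteins, which steer and fuse vesicles, gave 18 rises and 17 falls of 106 (median 0.09). RAB17, a GTPase of recycling endosomes in epithelial cells, went from 45.03, 30.8, 37.6 and 28.5 to 3.804, 1.51, 7.11 and 1.92 CPM (log2 -3.29, SE 0.38, adjusted p = 5.66e-05), with 19.2, 12.4, 20.3 and 12.3 at pH 6.9. SYT12, a synaptotagmin, fell from 35.2, 25.02, 26.8 and 22.2 to 10.02, 5.48, 10.8 and 5.51 CPM (log2 -1.78), and NSF and NAPA, which take spent SNARE complexes apart, fell by 0.53 and 0.62. RAB3B, a GTPase of regulated secretion, had 2.06, 1.34, 1.303 and 1.69 CPM at pH 7.4 and 4.93, 11.7, 1.58 and 12.6 at pH 6.4, where repeat 3 stayed at the neutral level (log2 2.26, SE 0.48, adjusted p = 0.003, and 0.0505 by limma-voom). Rises numbered 33 without repeat 3 at pH 6.4, 30 with the block and 34 without the 2 libraries that stood apart, beside 22 falls.

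Of the 10 basal and mesenchymal markers of the line 6 rose and none fell, where 15.6% of all tested genes rose and 14.7% fell. In the most abundant decile of protein-coding genes these shares were 28.2% and 11.6%, and most of these markers are abundant. The summed level of the 10 markers was 5613 to 5926 CPM in the neutral and 7061 to 8801 CPM in the acid libraries. PLAUR, the urokinase receptor, went from 69.9, 56.1, 52.6 and 54.6 to 115, 143, 74.98 and 152 CPM (log2 1.05), VIM rose by 0.55, EGFR by 0.305, MSN, which encodes moesin, by 0.52, and AXL as above. CD44, the hyaluronan receptor, had 659, 701, 671 and 654 CPM at pH 7.4 and 1315, 1453, 935 and 1204 at pH 6.4, with no overlap (log2 0.87, SE 0.12, adjusted p = 0.000174). SPARC, a matrix protein, was not called (log2 0.32), but was without repeat 1 at pH 7.4 (0.76, adjusted p = 0.0192). Of 11 tested luminal markers 3 fell, KRT18 by 0.59, AGR2 by 0.77 and CDH1, with 3.16, 1.78, 1.35 and 0.7805 CPM at pH 7.4, by 1.76, and XBP1 rose by 0.89. Their sum was 957 to 1188 CPM in the neutral and 860.4 to 953.8 CPM in the acid libraries. With the repeat block EPCAM, GATA3, SPDEF and ERBB2 were also called lower (edgeR adjusted p = 0.00542, 0.0151, 0.0109 and 0.044), and the basal markers ETS1 and LGALS1 higher (0.0312 and 0.00802). The call of AGR2 was lost without repeats 2, 3 or 4 at pH 7.4 or repeats 1 or 2 at pH 6.4 (adjusted p = 0.0639 to 0.109).

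Fibroblast markers had a sum of 50.2 to 59.8 CPM in the neutral and 29.3 to 34.6 CPM in the acid libraries, and 4 of the 6 tested fell: LUM from 4.56, 11.99, 7.87 and 5.31 to 1.56, 2.14, 2.26 and 1.82 CPM, COL3A1 by 1.52, PDGFRB by 1.02 and COL1A1 by 0.36. Among all tested genes 14.7% were called lower. The call of COL1A1 was lost whichever of the 8 libraries was left out (adjusted p = 0.0653 to 0.105). Of 4 tested blood cell markers CD14 fell, by 1.07, and the list summed to 4.64 to 7.36 CPM in the neutral and 2.50 to 3.91 CPM in the acid libraries. Endothelial markers summed to 57.3 to 83.3 and 72.7 to 119.7 CPM, mostly ESAM, and none of 3 tested was called. ESAM (log2 0.38) was called higher with the repeat block (edgeR adjusted p = 0.00161). The part of these markers in the results was not tested.

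Calls were not spread evenly over kinds of genes. Protein-coding genes were called higher in 18.8% and lower in 16.3% of 13332 cases, long intergenic non-coding genes in 6.91% and 13.1% of 1013, antisense genes in 5.17% and 13.6% of 1122, and processed pseudogenes in 1.59% and 1.73% of 693. Among protein-coding genes in deciles of abundance the share called higher went from 3.75% to 28.2%, while the share called lower peaked at 21.8% in the fourth decile and was 11.6% in the most abundant. In the second lowest decile 9.45% were called higher and 15.8% lower. Kinds of genes were not compared at equal abundance, so the part of abundance in their shares was not tested.

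By the length of the gene's longest transcript the share called higher went from 8.85% in the shortest decile (207 to 1650 bases) to 30.4% in the longest (7722 to 109224 bases), and the share called lower from 16.2% to 12.8%. In the more abundant part of the protein-coding genes the quintiles by length ran from 15.0% to 34.8% higher and from 17.4% to 10.6% lower. For each library the median deviation of the longest decile from each gene's 8-library mean was set against that of the shortest decile. The difference was -0.16, -0.09, -0.11 and -0.02 on the log2 scale in repeats 1 to 4 at pH 7.4 and 0.09, 0.16, -0.0043 and 0.11 at pH 6.4, so that the groups did not overlap. The group means differed by 0.18, and by 0.19 without the 2 libraries that stood apart. The length trend was found in these libraries, so these values describe it and are no test of it.

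**Figure D5:**
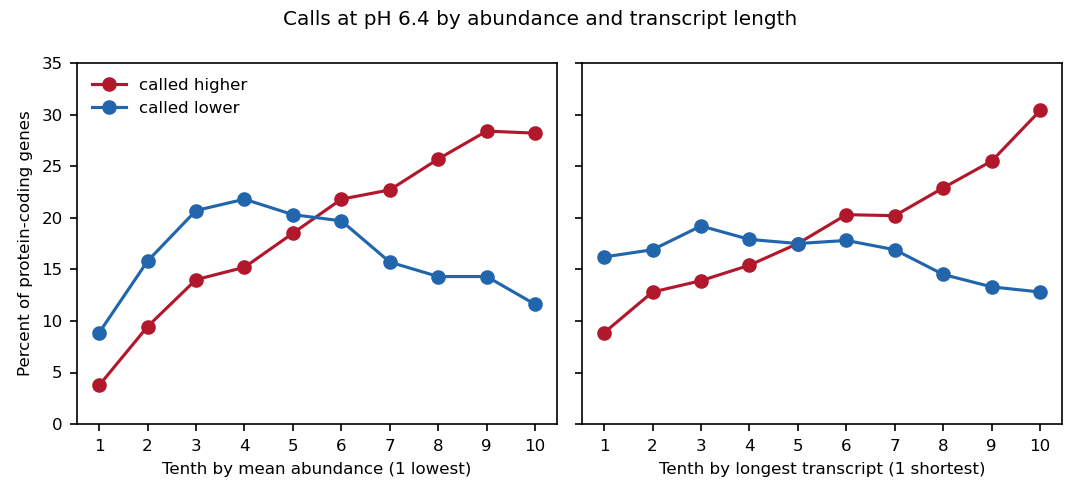
Share of protein-coding genes called higher (red) and lower (blue) at pH 6.4, in percent, by deciles of mean abundance (left) and of the length of the longest transcript (right), each point 1 decile. The red line climbs to 28.2% in the most abundant and to 30.4% in the longest decile, and the blue line ends at 11.6% and 12.8%.

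Exons of another annotated gene overlap those of ADAM19, ADAMTSL4, ADSS2, ALPP, ARG2, AXL, CD44, CDH1, COL3A1, CYP1B1, EGFR, ERBB2, ERRFI1, ESR1, ESR2, FGF5, FLVCR2, FOXA1, GLUD1, IDH1, KRT18, LPCAT2, LPCAT3, MIR100HG, MT1X, MYO18A, NR1D1, NR1H3, PC, PEG10, PGR, PSENEN, PSMA6, PSMC5, PSME4, RAB17, RAD51D, RASA1, RBL1, RBM15, RGMB, S100PBP, SLC26A2, SLC30A3, SLC31A2, SLC39A1, SNHG16, SPARC, SSH1, TYMP, UCA1, VDR, VIM, WNT2B, ZNF117 and ZNF382, so that reads at these genes may belong in part to a neighbour. Pseudogene copies by symbol exist for AKR1B1, GLUD1, KRT18, KRT19, MSN, MT1X, PC, PSMA6, SLC30A6, SLC31A1, SRRM1 and XBP1. Overlaps and copies were looked up for 164 genes only. Other list members mentioned above, such as ADAM9 and ALAD, were not checked. Related genes with names of their own were not searched for shared reads.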

How the data were processed

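The deposited table held raw counts per gene for 60664 genes in 12 libraries, made with STAR and featureCounts on GRCh38.p13 (hg38) per the submitters' processing notes. Per the labels' protocols, stranded poly(A) libraries were read on a NextSeq500; no source used here gives the strand and multi-mapping settings. Groups came from the treatment labels. Genes passing filterByExpr (17544) were tested with edgeR 4.0.16 in R 4.3.3 (robust quasi-likelihood test, TMM, group means over all 12 libraries, 9 residual degrees of freedom, biological coefficient of variation 0.198, Benjamini-Hochberg). CPM values use TMM-scaled totals. The repeats are not stated to be separate cultures, so p-values measure only the spread between these samples. Deviations of same-numbered pH 6.4 and pH 7.4 libraries from their group means correlated at 0.113, 0.167, 0.224 and 0.262 across genes, all over 0.1, so the repeat number was also fitted as a block. Alternatives were 8 libraries alone, other scalings and filters, DESeq2 1.42.0, limma-voom 3.58.1, single libraries left out, the 2 libraries that stood apart left out, and pairs of repeats. On simulated counts for this comparison (16962 genes) 42.4%, 74.2% and 78.8% of 66 genes changed 1.5, 2 and 4-fold were recovered, and 0.0298% of unaltered genes were called. The simulation altered few genes and held neither the likeness between repeats nor libraries that stood apart. Its rates therefore need not hold for the calls reported here.

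Named genes were the 10 largest rises and 10 largest falls among called genes at 100 CPM or more without overlap, the 3 largest called changes of each list at 5 CPM or more, the markers, the 5 lowest adjusted p-values, and genes said to be chosen after their values were seen. The comparison, the lists and the named-gene rule were chosen with earlier results of these data known. Some genes and lists are not reported here. Coordinates are from GENCODE 29 and promoters from RefSeq.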

Additional observations from a re-analysis of the deposited data

Results flagged for a closer look

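In each group of 4 libraries, for the named genes that were tested and for 4 properties of the libraries (total counts, genes detected and the shares of mitochondrial and of long non-coding transcripts), the highest or lowest library was compared with the others by Dixon's gap test. Of 292 groups 10 had a library far from the others, 3.42%, and chance alone marks about 1 in 20. Repeat 1 at pH 7.4 was the library in 7 of the 10. It was the highest neutral library for ADAM19 (68.98 CPM against 47.2 to 50.03), RAD51C (24.0 against 17.7 to 18.4), SLC31A2 (67.5 against 53.6 to 55.2), SLC39A1 (5.11 against 0.682 to 1.21) and SPARC (4.15 against 1.69 to 1.78). It was the lowest for SDC2 (67.9 against 84.6 to 87.8) and SLC30A7 (31.5 against 42.9 to 44.2). Among the acid libraries repeat 3 was the highest for SDC2 (42.7 against 23.6 to 26.7), repeat 2 for MAP2 (8.13 against 4.49 to 4.63) and repeat 4 for BAMBI (8.91 against 7.90 to 8.01).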

How the results depend on the processing

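The counts of 2737 genes higher and 2584 lower stayed within 1.5 times under every alternative run but 1. Within repeats 3 and 4 alone, 2 libraries a group, 821 were higher and 707 lower; the cause was not tested. Leaving out single libraries gave from 2005 to 3256 genes higher and from 1790 to 3155 lower, the lowest without repeat 2 and the highest without repeat 3 at pH 6.4. With the replicate block 3751 were higher and 3539 lower. It ended no call of a named gene and added 7 named genes that were not called without it. The other settings gave 2137 (library totals) to 3479 (without the 2 libraries that stood apart) higher and 1781 (repeats 1 and 2) to 3561 (without those 2) lower. No called named gene changed direction under any alternative, which the choice of genes by their calls in these libraries favoured. Of 123, from 2 to 12 lost the call when a library was left out, 11 within repeats 1 and 2 and 52 within repeats 3 and 4. Of 48 counts of list members called higher or lower, 17 moved by over 1.5 times with the block and 44 within repeats 3 and 4. Depth was not varied; of protein-coding genes in the lowest decile of abundance 3.75% were called higher and 8.85% lower.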

Other observations

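Several list members with fewer than 5 CPM in both media also changed, and those named here, chosen after their values were seen, were called whichever of the 8 libraries was left out. The Wnt-amplifying receptors LGR5 and LGR6, which bind R-spondins, fell from a mean of 1.97 to 0.569 CPM (log2 -1.77, edgeR adjusted p = 0.00327) and from 2.21 to 0.366 CPM (log2 -2.57, adjusted p = 0.000538). Their pH 6.9 means were 1.24 and 1.16. NDST3, which removes acetyl groups from heparan chains so that they can be sulfated, fell from 2.48 to 0.487 CPM (log2 -2.34, adjusted p = 0.000758). LPAR5, a receptor for lysophosphatidic acid, and ADORA1, an adenosine receptor, fell by 1.41 and 1.31 on the log2 scale.

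Vesicle genes were among the low falls. RAB37, a GTPase of secretory granules, fell from 4.72 to 0.812 CPM (log2 -2.53, adjusted p = 0.000212), RAB7B, a GTPase of late endosomes, by 1.56 and SYT11, a synaptotagmin, by 1.74. KDM8, of the histone demethylase family, fell from 4.58 to 1.86 CPM (log2 -1.296), against the rises of KDM7A, KDM6B, KDM1A and KDM5C. CYP24A1 rose from 2.05 to 4.75 CPM beside the fall of VDR.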
